A study of Mus musculus with 6 samples.

Results

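Accessible chromatin around Cebpb (NCBI gene 12608) and Klf15 (NCBI gene 66277), which encode transcription factors of the fasting response, was compared between fed and fasted mouse liver. The members were 49 DNase I hypersensitive regions of 75169 in the series. They were taken by position, as every region overlapping chromosome 2 from 167440000 to 167620000 (28 regions, called the Cebpb window) or chromosome 6 from 90370000 to 90460000 (21 regions, the Klf15 window) in build mm9. The windows themselves were chosen with earlier results of these data known. A region is a stretch of DNA in which at least 1 library had a hotspot, an excess of DNase I cuts, with overlapping hotspots of the 6 libraries merged. The regions of each window are numbered along the chromosome. All 6 libraries came from livers of C57BL/6 mice kept under a light-dark cycle and were taken at 6 in the morning, when the lights came on. For the 3 fed libraries mice ate ad libitum, and for the 3 fasted libraries they had no food for 24 h. The labels do not say that each library came from its own animal, so the spread between libraries may be partly technical. RNA was not analysed here, so these data do not give the levels of either transcript.

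C/EBPβ, the protein encoded by Cebpb, is a basic leucine zipper transcription factor that binds DNA as a dimer. In liver its gene responds to cyclic AMP, glucocorticoids and inflammatory signals, and the protein takes part in the control of glucose production and the acute phase. KLF15, a zinc finger factor of the Krüppel-like family, is known in liver for promoting amino acid breakdown and the supply of carbon for glucose synthesis during fasting. In the RefSeq gene order the protein-coding neighbours of Cebpb are Tmem189 and Ptpn1, a gene for a tyrosine phosphatase that acts on the insulin receptor. Those of Klf15 are Cfap100 and Aldh1l1, a gene for a folate enzyme. The gene table used here is of another build (GRCm38.p6), so no region was placed relative to a start site, an exon or an intron, and no region is assigned to a gene. For the same reason the labelled tissue was not checked against marker genes. Liver holds several cell types, and in such bulk samples fewer cells of a type and less accessibility per cell cannot be told apart.

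The RefSeq promoters of both genes are shown as planned, with motifs listed in advance except where stated. Among these is the cyclic AMP element, through which fasting hormones are known to act. Every run is the 250 bases before the start site on the plus strand of GRCm38.p6 (chr2:167688665-167688914 for Cebpb, chr6:90462326-90462575 for Klf15), and both genes were found in the promoter table. Capitals mark the short form of the element (TGACG, or CGTCA on the other strand).
Cebpb: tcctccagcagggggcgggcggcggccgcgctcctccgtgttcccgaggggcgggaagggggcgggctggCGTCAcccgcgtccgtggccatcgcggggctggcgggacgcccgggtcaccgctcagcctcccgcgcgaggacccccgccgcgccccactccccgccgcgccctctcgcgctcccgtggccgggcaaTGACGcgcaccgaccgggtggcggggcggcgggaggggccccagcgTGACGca
Klf15: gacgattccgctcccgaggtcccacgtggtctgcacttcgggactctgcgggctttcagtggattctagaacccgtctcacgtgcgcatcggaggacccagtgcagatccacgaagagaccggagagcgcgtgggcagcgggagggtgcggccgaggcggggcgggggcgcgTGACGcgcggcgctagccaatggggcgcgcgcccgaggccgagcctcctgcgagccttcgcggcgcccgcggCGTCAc
Both promoters are rich in G and C (81.6% for Cebpb and 72.0% for Klf15), above 99.3% and 93.1% of the 32851 RefSeq promoter sequences of this length. Positions are counted back from the start site, with -1 the last base before it. The Cebpb promoter holds the short element 3 times, starting at -180, -53 and -7, and the Klf15 promoter 2 times, at -78 and -6. It occurs in 17.8% of all promoters on either strand. That share is not matched for base composition: the element contains the pair CG, which occurs 41 times in the Cebpb stretch and 37 times in that of Klf15. The full element TGACGTCA (1.5% of promoters) is in neither. The GC box GGGCGG, which KLF and SP factors are known to bind, occurs 5 times in the Cebpb promoter, where the first 2 matches overlap. It occurs 1 time in the Klf15 promoter and in 32.7% of all promoters. CCACCC (28.1% of promoters) was found 1 time at Cebpb, and CCAAT (33.8%) 1 time at Klf15. Neither sequence holds the C/EBP form TTGCNNAA (9.6%), the forkhead form TGTTTAC (3.2%), TATAAA (12.4%) or the glucocorticoid receptor palindrome (0.4%). The E-box CACGTG, searched for after the sequences had been seen, occurs 2 times in the Klf15 promoter (-228 and -172), not in that of Cebpb, and in 6.0% of all promoters. A match describes letters in these stretches, not binding.

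The deposited lists held 49682 to 63476 hotspots per library. Height is the maximum tag density of a hotspot, as deposited. Within each library the heights were whole multiples of 1 step (100% within 0.05 step), so the step gives relative depth if it stands for 1 tag. On that reading the shared regions of both windows were 31 to 691 tags high. The greatest depths, 1.64 and 1.90 times the shallowest, belonged to fed replicate 3 and fasted replicate 2, 1 in each group.

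In the Cebpb window 17 of 28 regions (60.7%) were called in all 6 libraries, and in the Klf15 window 12 of 21 (57.1%), against 49.3% of all 75169. Only these shared regions were tested, because the lists give no height for a library without a call. Of the shared members, 11 of 17 and 9 of 12 lay above the median density of the 37044 shared regions of the genome. Each window held a pair of broad regions next to each other. In the Cebpb window these were region 14 (chromosome 2, 167512337 to 167515534, 3197 bp) and region 15 (167515995 to 167520362, 4367 bp), 0.46 kb apart. In the Klf15 window they were region 7 (chromosome 6, 90411879 to 90414223, 2344 bp) and region 8 (90414643 to 90417659, 3016 bp), 0.42 kb apart. Their widths stood at the 94.6th to 99.7th percentile of all shared regions, whose median width is 1053 bp. Each of these broad regions held 1 to 3 hotspots per library, and its value is the height of the highest.

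The Cebpb window changed in both directions after fasting. Near its far end 2 neighbouring regions fell, region 22 to 0.40 times its fed height on the log scale, while region 20 rose on the near side of a 36.5 kb stretch without shared regions. Of the 17 shared regions 1 rose (5.88%) and 2 fell (11.8%) at a Benjamini-Hochberg adjusted p under 0.05 in limma. Of all 37044 shared regions 7.89% rose (2921) and 7.84% fell (2905). With densities as deposited, without centring, these numbers were 1946 and 3189. At 1 and 2 regions, neither share of the window is read as differing from the background. Fold changes are given as fasted minus fed on a log2(density + 1) scale, after the median of each library over shared regions was subtracted. Their median was 0.07 in the window against 0.035 over all shared regions, and without fed replicate 3 the window's median was -0.02.

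Region 22 (chromosome 2, 167586929 to 167588055, 1126 bp) had heights of 62.9, 73.4 and 73.2 in fed replicates 1 to 3, and of 36.9, 19.1 and 25.4 in fasted replicates 1 to 3. Every fasted library was lower than every fed one, and fasted replicate 1 was the highest of the fasted. The height fell from 69.9 ± 6.03 to 27.15 ± 8.99 (SD, n = 3 each), and the log2 difference was -1.30 (limma SE 0.20, adjusted p = 8.7e-05). This lies below the 5th percentile of all shared regions (-0.79).

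Region 23 (167590085 to 167591339, 1254 bp) begins 2.03 kb further on and was among the highest of the window in fed liver. It stood at 142.3, 108.3 and 92.0 in the fed libraries and at 59.9, 67.3 and 69.9 in the fasted ones, with no overlap. The mean fell from 114 ± 25.7 to 65.7 ± 5.22, and the log2 difference was -0.70 (limma SE 0.15, adjusted p = 0.0032). Region 21 (167585224 to 167586000), 0.93 kb before region 22, had 28.3, 31.5 and 29.5 in fed and 19.01, 19.34 and 23.91 in fasted libraries. Its groups did not overlap either, but its log2 fold change of -0.43 (SE 0.19) did not pass (adjusted p = 0.13, limma). Region 21 was named for its place, after its values were seen. Both falls passed under each of the 18 alternatives tried.

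Region 20 (167547911 to 167548753, 842 bp) had 13.98, 23.23 and 22.2 in the fed libraries and 25.8, 32.0 and 35.7 in the fasted ones. The groups did not overlap, and fed replicate 1 was the lowest library. It rose from 19.8 ± 5.07 to 31.2 ± 4.999, by 0.72 on the log2 scale (limma SE 0.22, adjusted p = 0.030). This call is weak: it was lost without fed replicate 1 (log2 fold change 0.47, adjusted p = 0.19), fasted replicate 2 (0.64, adjusted p = 0.075) or fasted replicate 3 (0.67, adjusted p = 0.093), and with densities as deposited (0.65, adjusted p = 0.055). It was also lost with depth as a covariate (0.60, adjusted p = 0.095), with both deepest libraries left out (0.75, adjusted p = 0.056) and in the fit that set missing calls to the lowest density (0.72, adjusted p = 0.088).

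The 2 highest members of the Cebpb window beside region 23 did not pass. Region 2 (167457035 to 167458249), the highest, had 115.8, 125.9 and 104.8 in fed and 114.9, 136.4 and 123.2 in fasted libraries, which overlap. Its log2 fold change was 0.18, with a 95% interval from -0.10 to 0.47. The broad region 14 had 109.6, 83.2 and 92.7 in fed and 127, 96.3 and 132 in fasted libraries. Fasted replicate 2 lay below fed replicate 1 in height as deposited, while the centred values did not overlap. Its log2 fold change of 0.38 (95% interval 0.10 to 0.67) narrowly missed the threshold (adjusted p = 0.062, limma). It passed without fasted replicate 2 (0.47, adjusted p = 0.020), with depth as a covariate (0.43, adjusted p = 0.045) and with both deepest libraries left out (0.47, adjusted p = 0.027). In the same 3 fits region 10 (167484993 to 167485861), named for this after its values were seen, passed as well. It had 29.8, 35.2 and 27.2 in fed and 55.9, 26.05 and 49.3 in fasted libraries, where fasted replicate 2 was the lowest of all. With all libraries its log2 fold change was 0.50 (adjusted p = 0.12), without fasted replicate 2 it was 0.77 (adjusted p = 0.0061). The broad region 15, which lies next to region 14, was named for its width. It had 36.0, 34.5 and 35.5 in fed and 34.0, 49.7 and 45.1 in fasted libraries, and did not pass (0.33, adjusted p = 0.27, limma). These heights are not all of the same site. The highest hotspot began at 167519514 and 167519504 in fed replicates 1 and 2. In fed replicate 3 it ran from 167516150 to 167518865. In all, 14 shared regions of the window did not pass, with log2 fold changes from -0.43 to 0.50. Centred heights did not overlap between groups at 4 regions with higher and 4 with lower fasted values, 23.5% each. Of all shared regions this held for 16.8% (higher) and 14.6% (lower).

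**Figure D1:**
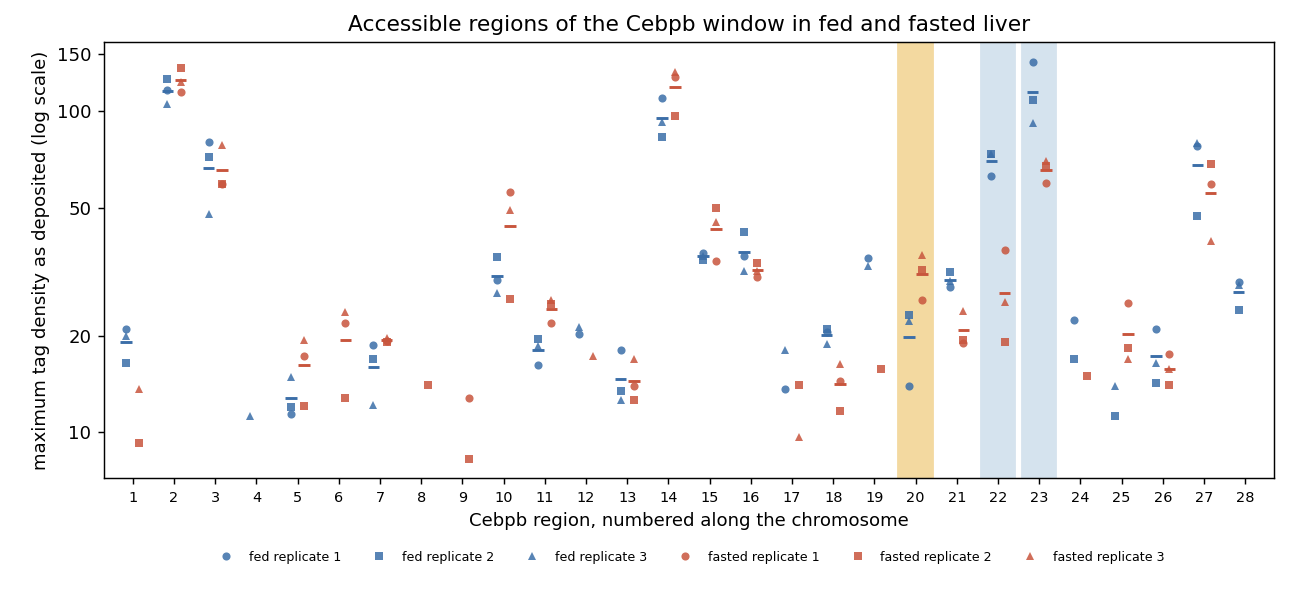
Maximum tag density as deposited (log axis) of the 28 Cebpb regions in chromosomal order, 1 point per library that called the region (blue fed, red fasted; marker shape gives the replicate). Short bars are group means where all 3 libraries had a call; the yellow band marks region 20, which rose, and the pale blue bands regions 22 and 23, which fell.

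Ratios of heights within a library do not depend on centring. The ratio of the height of region 14 to that of region 22 was 1.74, 1.13 and 1.27 in the fed libraries and 3.45, 5.03 and 5.20 in the fasted ones. The ratio of region 20 to region 21, its next shared neighbour, was 0.49, 0.74 and 0.75 in fed and 1.36, 1.65 and 1.49 in fasted libraries. Region 20 was thus lower than region 21 in every fed library and higher in every fasted one. Both pairs were chosen for their difference after the values had been seen, so the ratios are a description with no test. A ratio does not tell which of its members moved, and regions 14 and 21 did not pass on their own.

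In the Klf15 window every region that passed the test rose. Of its 12 shared regions 5 rose and 0 fell (limma, adjusted p under 0.05), 41.7% against 7.89% of all shared regions for a rise and 0% against 7.84% for a fall. With only 12 regions, the 0 falls are not read as differing from the background. The risen regions lay across the window, from region 3 to region 16, with log2 fold changes of 0.45 to 0.67. At an unadjusted p under 0.05 there were 7 regions (58.3%), all with a positive fold change, against 27.7% of all shared regions in either direction. All 12 had a positive log2 fold change, but 10 of 12 with densities as deposited or without fed replicate 3, and 11 of 12 without fasted replicate 1 or with both deepest libraries left out. Over all shared regions 54.2% were positive. The median was 0.39 in the window against 0.035 over all shared regions. In the upper 50% of regions by density it was 0.45 over 9 regions of the window against 0.099 over all. In the fit of that upper 50%, 5 of these 9 regions rose (limma, adjusted p under 0.05). Over the genome, rises outnumbered falls there, at 1934 against 1289. Centred heights did not overlap, with fasted higher, at 9 of 12 regions, against 16.8% of all. The number that rose depended on single libraries: it was 1 without fasted replicate 1, 2 without fed replicate 3 and 3 without fed replicate 1, with densities as deposited, or with average in place of maximum density. Region 3 passed in each of these.

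Region 3 (chromosome 6, 90384630 to 90386021, 1391 bp) had heights of 79.4, 94.0 and 81.7 in fed replicates 1 to 3, and of 132, 107 and 129.9 in fasted replicates 1 to 3. Even fasted replicate 2, the lowest of its group, exceeded fed replicate 2, the highest of the fed. It rose from 85.1 ± 7.86 to 123.2 ± 13.8 (SD, n = 3 each), by 0.60 on the log2 scale (limma SE 0.14, adjusted p = 0.0037). Region 5 (90400053 to 90401422, 1369 bp), 14.03 kb further on, had 55.2, 59.2 and 49.4 in fed and 90.2, 70.7 and 80.2 in fasted libraries. Here too the groups did not overlap, and the log2 fold change was 0.62 (limma SE 0.15, adjusted p = 0.0075), or 0.54 without fasted replicate 1 (adjusted p = 0.064).

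Region 12 (90425192 to 90426479, 1287 bp) had the greatest fold change of the shared regions. It stood at 29.4, 30.4 and 25.2 in fed and at 45.7, 38.1 and 46.6 in fasted libraries, with no overlap. The log2 fold change was 0.67 (limma SE 0.18, adjusted p = 0.011). By average density it was 0.47 (adjusted p = 0.051). Without fed replicate 3 it was 0.61 (adjusted p = 0.051), and without fasted replicate 1 it was 0.64 (adjusted p = 0.058).

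Region 14 (90436162 to 90437165, 1003 bp) had 25.01, 28.48 and 23.1 in fed and 45.7, 30.2 and 38.1 in fasted libraries. Fasted replicate 2 lay just above the highest fed library. The log2 fold change was 0.61 (limma SE 0.19, adjusted p = 0.031). Leaving out fed replicate 1 (0.57, adjusted p = 0.096), fed replicate 3 (0.56, adjusted p = 0.10), fasted replicate 1 (0.48, adjusted p = 0.19) or fasted replicate 3 (0.65, adjusted p = 0.054) lost the call. With densities as deposited it was 0.54 (adjusted p = 0.088), and by average density 0.47 (adjusted p = 0.062).

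Region 16 (90441749 to 90442940, 1191 bp) was higher, at 92.7, 107.5 and 99.3 in fed and 134, 136 and 120 in fasted libraries. Its groups did not overlap, and the mean rose from 99.9 ± 7.44 to 129.7 ± 8.87. The log2 fold change of 0.45 (limma SE 0.14, adjusted p = 0.030) was the smallest of the 5. It failed the threshold under 10 of 18 alternatives: among others with densities as deposited (0.38, adjusted p = 0.090), with quantile normalization (0.31, adjusted p = 0.14) and with both deepest libraries left out (0.37, adjusted p = 0.095). It was also lost without fed replicate 1 (0.37, adjusted p = 0.13), fed replicate 3 (0.46, adjusted p = 0.062), fasted replicate 1 (0.43, adjusted p = 0.10) or fasted replicate 2 (0.35, adjusted p = 0.085).

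The broad pair of the Klf15 window did not pass. Region 7, the highest of the window, had 119, 111 and 96.4 in fed and 129.9, 136 and 127 in fasted libraries, which do not overlap. Its log2 fold change was 0.34, with a 95% interval from 0.07 to 0.62 (adjusted p = 0.080, limma). Region 8, named for its width, had 76.9, 66.3 and 74.6 in fed and 74.05, 69.5 and 88.4 in fasted libraries, which overlap as deposited but not after centring. Its log2 fold change was 0.16, with a 95% interval from -0.14 to 0.45. The 7 regions that did not pass had log2 fold changes of 0.04 to 0.40. Set against region 8 within each library, region 3 stood at 1.03, 1.42 and 1.09 in fed and at 1.79, 1.54 and 1.47 in fasted libraries, where the highest fed and the lowest fasted ratio lay close together. This pair too was chosen after the values had been seen, and its ratio was not tested.

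**Figure D2:**
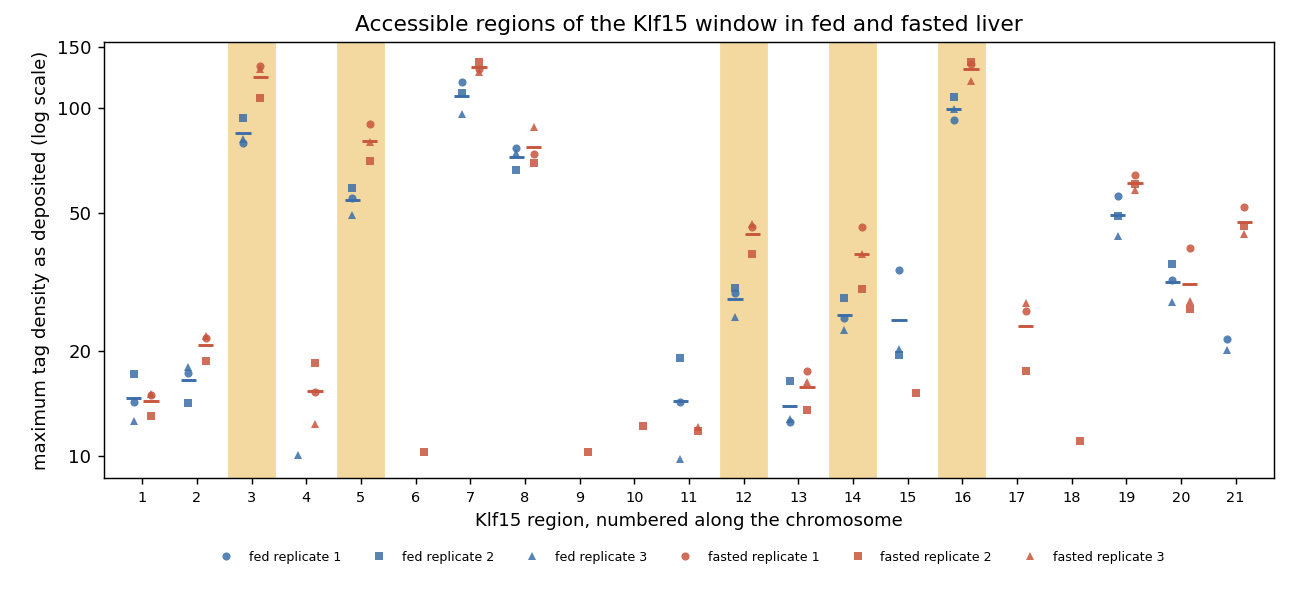
Maximum tag density as deposited (log axis) of the 21 Klf15 regions in chromosomal order, 1 point per library that called the region (blue fed, red fasted; marker shape gives the replicate). Short bars are group means where all 3 libraries had a call; yellow bands mark regions 3, 5, 12, 14 and 16, which rose and in which all red points lie above all blue ones.

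**Figure D3:**
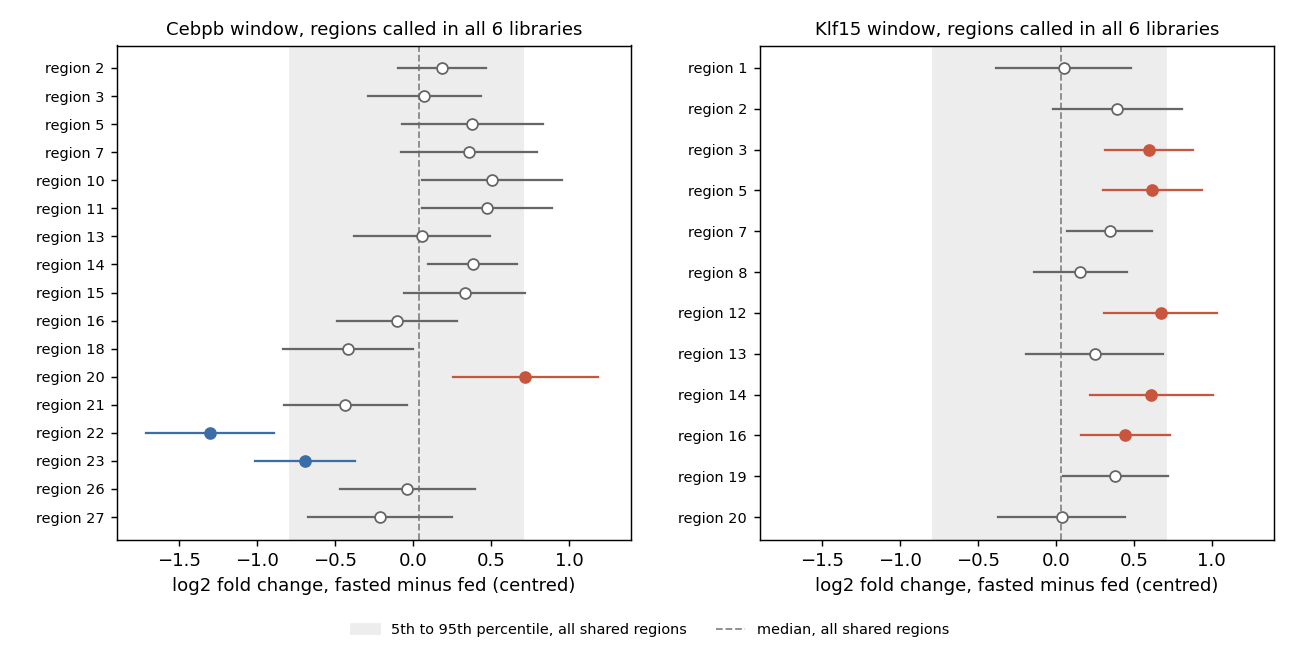
Log2 fold change, fasted minus fed, of the 17 Cebpb and 12 Klf15 shared regions with 95% intervals from limma; filled points passed the adjusted threshold (red higher, blue lower). The grey band is the 5th to 95th percentile of all 37044 shared regions (-0.79 to 0.71) and the dashed line their median; all 12 Klf15 points lie right of 0, and the Cebpb points lie on both sides.

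Summed over its shared regions, the Klf15 window was higher in every fasted library than in any fed one, and the Cebpb window was not. Each sum is divided by the library's median height over all shared regions. For Klf15 it was 24.4, 26.7 and 24.2 in fed and 35.3, 34.4 and 31.4 in fasted libraries. The difference was 8.63 (25.1 ± 1.39 against 33.7 ± 2.04, SD, n = 3 each, two-sided exact permutation p = 0.1, the smallest possible with 3 against 3). It was 7.85 to 9.78 when each library was left out. For Cebpb the sum was 33.5, 32.8 and 31.3 in fed and 31.6, 33.5 and 31.3 in fasted libraries, and the groups overlapped. The difference of -0.33 was smaller than the spread between replicates (32.5 ± 1.14 against 32.2 ± 1.199, exact permutation p = 1.0) and turned positive without fed replicate 1 (0.17) or fasted replicate 3 (0.09). Adjusted over these 2 tests, the p-values were 0.2 for Klf15 and 1.0 for Cebpb.

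**Figure D4:**
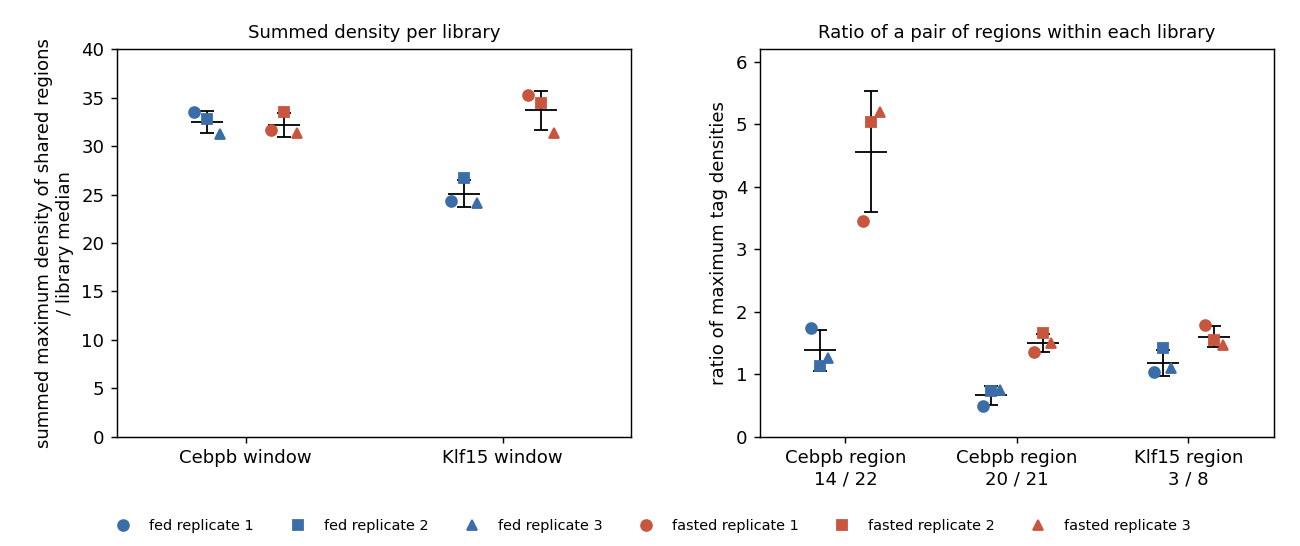
Left, the summed height of the shared regions of each window over the library's median height; right, the ratio of heights of 3 pairs of regions within each library (blue fed, red fasted; black bars are mean and SD, n = 3). The Klf15 sums of fasted libraries (31.4 to 35.3) lie above those of fed ones (24.2 to 26.7), the Cebpb sums overlap, and each ratio is higher in all fasted libraries.

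Some members were called in 1 group only, where lists hold no density for the other group. In the Cebpb window region 6 (167467612 to 167468262) was called in all fasted libraries, at 21.8, 12.8 and 23.6, and in no fed one. Region 28 (167606812 to 167607560) was called in all fed libraries, at 29.4, 24.0 and 28.8, and in no fasted one. In the Klf15 window region 17 (90451426 to 90452089) was called in all fasted libraries, at 26.1, 17.6 and 27.5, and in no fed one. Such fasted calls make up 1 of 28 and 1 of 21 members, against 1.17% of all regions, and such fed calls 1 of 28 and 0 of 21, against 1.57%. These 3 members had the same calls when hotspots within 150 bp were merged and when every list was shortened to its 49595 strongest hotspots. The heights of all 3 lay above the lower end of the lists, where 5% of hotspots are below 2.96 to 5.15, depending on the library. Yet regions of similar height were also missed in some libraries. Members not called in all libraries, these 3 included, had a median called height of 16.95 (Cebpb) and 17.56 (Klf15). Cebpb region 12 had 20.2 and 21.3 in fed replicates 1 and 3, 17.3 in fasted replicate 3 and no call elsewhere. Whether the missing calls of the 3 members reflect the calling threshold was not tested.

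The remaining 17 members were called in part of the libraries. Of these, 6 were called in 1 library only, 5 in fasted replicate 2 and 1 in fed replicate 3, the deepest libraries; the part of depth in these calls was not tested. The other 11 had 3 to 5 calls, 7 in the Cebpb and 4 in the Klf15 window, except 1 Cebpb region with 2 calls, both in fasted libraries. Region 21 of the Klf15 window (90458892 to 90459621), named after its values were seen, stood out among them. It had 21.7 and 20.1 in fed replicates 1 and 3, no call in fed replicate 2, and 51.9, 45.8 and 43.6 in the fasted libraries. For want of that 1 call it was not among the shared regions tested. With fed replicate 2 set to its lowest listed density (0.37) the log2 fold change was 2.53 (limma SE 0.96) and did not pass (adjusted p = 0.12). That filled value lies far below both called fed heights and enlarges the difference and the spread alike. This fit therefore does not decide whether the region changed. Region 19 of the Cebpb window (167544172 to 167545586), also named after its values were seen, had 34.9 and 33.0 in fed replicates 1 and 3, 15.8 in fasted replicate 2 and no call elsewhere.

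Shared regions just outside the windows numbered 4 to 18 per flank. Of all shared regions 7.89% rose, 7.84% fell and 54.2% had a positive log2 fold change. In the 180 kb before the Cebpb window 1 of 8 rose and 1 fell, and in the 180 kb after it 6 of 18 rose and 1 fell. In the 90 kb before the Klf15 window 1 of 4 rose and 0 fell, and in the 90 kb after it 2 of 8 rose and 1 fell. Before that window all 4 regions had a positive log2 fold change (median 0.32), and after it 3 of 8 did (median -0.14). For Cebpb 5 of 8 were positive before the window (median 0.12) and 12 of 18 after it (median 0.28).

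Regions elsewhere with the most similar pattern over the 6 libraries are given as a description, by Pearson's r of centred log2 height. For region 2 of the Cebpb window they were chromosome 10 from 98375985 to 98378171 (r = 0.997), chromosome 2 from 132088270 to 132090576 (r = 0.996) and chromosome 14 from 121309613 to 121310717 (r = 0.992). For region 7 of the Klf15 window they were chromosome 12 from 40763033 to 40765156 (r = 0.995), chromosome 5 from 65882995 to 65884920 (r = 0.993) and chromosome 10 from 57908484 to 57910726 (r = 0.993). With only 6 libraries and all shared regions searched, such values of r carry no test.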

How the data were processed

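DNase-seq of 3 fed and 3 fasted liver libraries was used. Nuclei were treated with 40 U/ml DNase I, and fragments between 100 and 500 bp were kept, per the labels' protocols. The submitters' processing notes name CASAVA 1.8 and build mm9. Aligner, hotspot caller and thresholds were not given in the sources used here. Per the file headers, each list holds hotspot positions (printed as deposited), maximum and average tag density (a coverage signal of unstated scale), a z-score with its p-value; neither the deposited score nor the p-value entered a test.

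Hotspots on chromosomes 1 to 19 and X sharing at least 1 bp were merged (Python 3.11.15, numpy 2.4.6, pandas 2.3.3, matplotlib 3.10.9). A region's value is its highest maximum density in a library, as log2(value + 1), centred on the library median. All 37044 shared regions were fitted together with limma 3.58.1 (R 4.3.3, eBayes with trend, adjusted threshold 0.05). The fit was also run on simulated independent normal values with limma's own spread. That run checks the code and not whether the model holds for these data. Summed heights used exact permutation tests. Within each group no pair of libraries was a duplicate: heights differed beyond counting noise, with a mean squared z from 2.18 to 5.80.

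By rule, full values are given for members past the threshold, the 3 highest of each window and those called in all libraries of 1 group only; the 3 regions most like the highest member of each window are named by Pearson's r. Members and lists were chosen with earlier results of these data known. Planned gene lists, marker genes and distances to start sites need an mm9 annotation and were not run.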

Additional observations from a re-analysis of the deposited data

How the results depend on the processing

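Leaving out both deepest libraries was added after the data were seen. The 11 members tested and given in full (those past the threshold and the 3 highest of each window) had 198 values under 18 alternatives: 167 kept their side of the threshold, 28 lost the call, 3 gained it, and 0 changed sign. Cebpb regions 2 and 14 and Klf15 region 7 had no call to lose. Of 18 alternatives each, the call was lost in 10 at Klf15 region 16 and in 7 at both Klf15 region 14 and Cebpb region 20. It was lost in 3 at Klf15 region 12 and in 1 at Klf15 region 5. The 2 falls in the Cebpb window passed in every fit (2 to 3 lower regions, 3 where a library without a call was set to its lowest listed density, which by construction decides the sign for regions that only 1 group called). The 1 higher Cebpb region became 0 with densities as deposited, and 2 with depth as a covariate or with both deepest libraries left out (2 against 2); leaving out each library gave 0 to 2. In these fits with 2 the called regions were 10 and 14, and region 20 had lost its call. The 5 higher Klf15 regions became 3 with densities as deposited and 3 by average density; leaving out each library gave 1 to 5. The difference of the summed Cebpb height ran from -1.01 to 0.17 on leaving out each library, reversed without fed replicate 1 (0.17) and fasted replicate 3 (0.09). Of all shared regions 2921 were higher, 1946 with densities as deposited and 1911 to 3199 without each library, and 2905 were lower. In the upper 50% by density, where fewer were tested, 1934 were higher and 1289 lower. The denser regions thus leaned to rises, with a median log2 fold change of 0.099. The cause was not tested for the other changes. Deviations of libraries with the same number correlated at -0.07, -0.03 and -0.17, so the numbers were not taken as pairs; the replicate block gave 1 higher and 2 lower Cebpb regions and 4 higher Klf15 regions, where Klf15 region 14 lost its call (adjusted p = 0.056). Weak shared members, 31 tags high at the least if 1 step stands for 1 tag, carry the largest counting error. Heights under the calling threshold are unknown.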
